A study of Mus musculus with 6 samples.

Results

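The 9 genes described here mark wound-associated, fetal-like intestinal epithelium or are transcriptional targets of YAP: Clu, Anxa1, Anxa3, Marcksl1, Emp1, Cd44, Ctgf, Cyr61 and Ankrd1. They were taken by symbol from a table of 34745 genes, and every one of the 9 was found in it. RNA sequencing measured colon tissue from age-matched male mice in 2 groups of 3 libraries each. The first group came from TRPC-hepta knockout mice, in which the whole TRPC family, cation channels that let calcium into cells, is missing according to the title. The other came from TRPC-hepta control mice. Both groups had received DSS, a sulfated polysaccharide that damages the lining of the colon, for 6 days. Untreated mice were not analysed here, so nothing is known from these data about the response to DSS itself. It is not stated in the labels how the alleles were made, on which strain background they stand, or whether each replicate is a separate animal, and the series' design text speaks of duplicates although 3 samples are given for each group. The p-values therefore measure the spread between these libraries, which may be technical. Libraries held 13816295 to 15505327 counted reads in the knockout group and 16819662 to 17584992 in the control group.

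When the colonic epithelium is wounded, cells at the wound edge leave the programme of the resting crypt, flatten, and switch on genes seen in the fetal gut. YAP, a co-activator held in the cytoplasm by the Hippo kinases, enters the nucleus in such cells and acts through DNA-binding TEAD proteins. Clu and Anxa1 are used as markers of this state in the mouse intestine, while Ctgf, Cyr61 and Ankrd1 are widely used readouts of YAP and TEAD activity. None of these genes is restricted to epithelium: Ctgf and Cyr61 are also made by fibroblasts, endothelium and muscle, and Anxa1 and Cd44 by leukocytes.

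The promoters that carry the DNA element read by TEAD proteins, CATTCC on either strand (GGAATG on the other), are shown because YAP acts on DNA through TEAD proteins. Each is the 250 bases before the RefSeq transcription start on GRCm38.p6, written 5′ to 3′ on the gene's strand, with the element in capitals. Cyr61 (chr3:145649986-145650235, minus strand) held 1 match starting 103 bases before the start. Ankrd1 (chr19:36119845-36120094, minus strand) held 2, starting 210 and 123 bases before it. Anxa1 (chr19:20390672-20390921, minus strand) held 1, starting 236 bases before it. The Anxa1 gene as counted here spans 20373428 to 20390944, so this window lies inside it, downstream of that annotation's start.
Cyr61: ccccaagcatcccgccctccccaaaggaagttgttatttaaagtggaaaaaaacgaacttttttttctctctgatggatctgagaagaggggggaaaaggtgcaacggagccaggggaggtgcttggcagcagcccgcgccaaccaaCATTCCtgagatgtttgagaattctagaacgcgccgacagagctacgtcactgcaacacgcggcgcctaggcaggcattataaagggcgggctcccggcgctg
Ankrd1: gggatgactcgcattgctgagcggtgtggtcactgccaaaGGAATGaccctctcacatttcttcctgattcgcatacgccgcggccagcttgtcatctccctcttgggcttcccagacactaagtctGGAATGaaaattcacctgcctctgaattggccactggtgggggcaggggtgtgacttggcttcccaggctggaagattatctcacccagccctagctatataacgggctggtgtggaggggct
Anxa1: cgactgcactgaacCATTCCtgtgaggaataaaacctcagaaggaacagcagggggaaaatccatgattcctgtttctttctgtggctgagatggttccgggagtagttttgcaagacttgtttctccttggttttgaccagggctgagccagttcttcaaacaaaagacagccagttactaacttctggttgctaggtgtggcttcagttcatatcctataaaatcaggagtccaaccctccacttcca
Of all 32851 promoter windows of that length, 12.6% held the element at least once and 1% at least 2 times. The windows of Marcksl1, Cd44 and Emp1 held no match, and for Clu, Anxa3 and Ctgf no window was read. A match is a run of letters and was not tested as a binding site.

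The reads of the targeted genes do not check the labels: of the 7 Trpc genes, 4 had enough reads to be tested, and their log2 fold changes were -0.52 to 0.02 with edgeR adjusted p of 0.735 to 0.988. Trpc1, the most read, had 90 to 152 reads in the knockout and 124 to 178 in the control. Which exons were removed is not stated, and a transcript can persist without one. Knockout below means the libraries labelled so. The knockout libraries differed from each other more than the control libraries did. Libraries were compared by Pearson's r of log2 CPM across genes (CPM being the read count relative to the library total after scaling). Between knockout replicates 1 and 2, r was 0.877, and between control libraries 0.97 to 0.976 (genes do not count as replicates here). With the control libraries, knockout replicate 2 correlated at 0.929 to 0.938 and replicate 1 at 0.869 to 0.888. Replicate 2 was thus nearer to the controls than to knockout replicate 1. Knockout replicate 3 was approximated by a weighted sum of the other two, with weights of 0.497 on replicate 1 and 0.595 on replicate 2 and squared deviations of 2.62 times counting noise in the median gene, against 6.84 to 9.36 for control libraries fitted in the same way on each other. Of the 9 genes, 8 lay between replicates 1 and 2 in knockout replicate 3, and the exception was Clu. Among 5287 genes at least 2-fold apart in knockout replicates 1 and 2, 92.8% did so too. Clu, Anxa1 and Anxa3 were less than 2-fold apart there, so that share is not a background for all 9 genes. The share over all genes tested was not counted. Clu was nearly level in replicates 1 and 2, at 104 and 101 CPM. Without knockout replicate 3, the log2 fold changes were 0.65 for Anxa3, 0.46 for Cd44, 0.64 for Cyr61, 0.35 for Ctgf, -0.02 for Anxa1 and -0.74 for Emp1, each within 0.1 of the value with it, and those of Clu and Marcksl1 stand beside their results. Epithelial markers were abundant throughout: Krt8, a keratin of simple epithelium, measured 1872, 4319 and 3084 CPM in knockout replicates 1, 2 and 3, and 4190, 4398 and 3674 CPM in control replicates 1, 2 and 3. In whole tissue, fewer cells of a type and less RNA per cell cannot be told apart.

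Of the 9 genes, Clu alone passed the test between the genotypes. Its transcript was about 2-fold more abundant in the knockout, at nearly the same level in every knockout library. The labels do not say whether knockout replicate 3, close to a weighted sum of the other 2, is independent of them. If it is not, the SE and p-values here are too small. Without that replicate Clu did not pass (edgeR adjusted p = 0.139). Marcksl1 had a larger fold change and its groups did not overlap, but it missed the threshold, and the knockout libraries differed among themselves. The YAP targets Ctgf and Cyr61 varied more within each group than between the groups, and Ankrd1 was barely read. Of the 8 genes with enough reads to be tested, 1 rose and 0 fell at an adjusted p under 0.05 in edgeR. Of all 15819 genes tested, 1.76% passed, 1.09% as higher and 0.67% as lower in the knockout. Clu and Marcksl1 had an unadjusted p under 0.05 and were higher; over all genes 9.48% were higher and 6.5% lower at that level. DESeq2 called 2 of the 8, Clu and Marcksl1, and 9.19% of all genes. Positive fold changes were seen in 6 and negative ones in 2, with a median log2 fold change of 0.52 against 0.01 over all genes tested. That median rested on single libraries: it was 0.07 without knockout replicate 1, 0.77 without knockout replicate 2, 0.3 without control replicate 1 and 0.9 without control replicate 2.

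**Figure D1:**
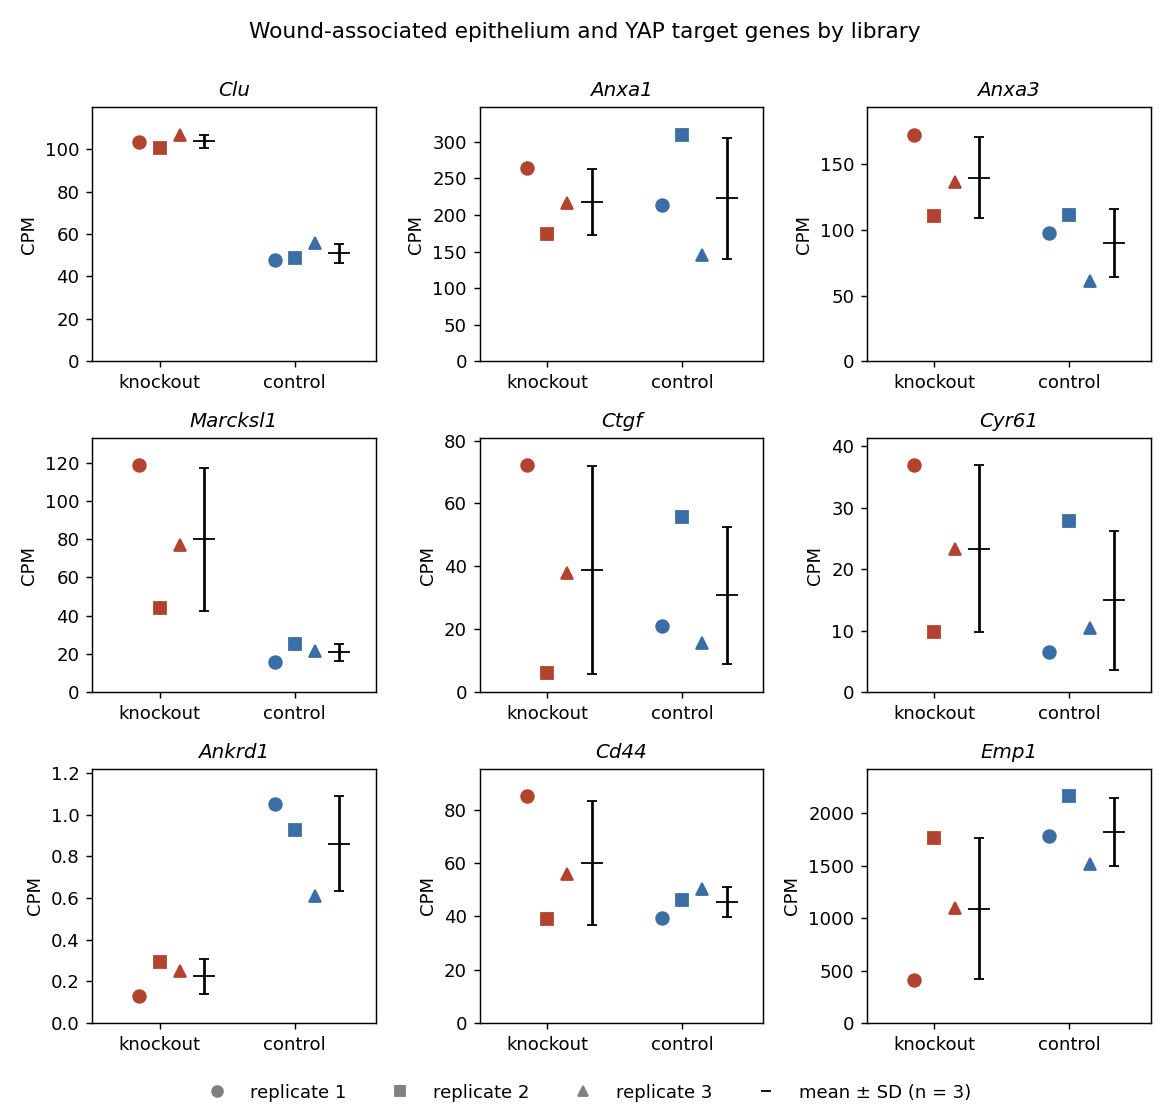
CPM of each of the 9 genes (vertical axis of each panel, starting at 0) in the 3 knockout and the 3 control libraries, with the mean and SD of each group beside the points. Clu and Marcksl1 lie apart upwards in the knockout and Ankrd1 lies apart downwards; in the other 6 panels the groups overlap.

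Per kilobase of transcript, Emp1 was the most abundant of the 9 in both groups. It averaged 170 ± 95 FPKM (fragments relative to transcript length and library size) in the knockout and 278 ± 52 FPKM in the control (SD, n = 3 each). Anxa1 followed at 60.2 and 57.7 FPKM in knockout and control. In the control the order went on with Anxa3 at 17.3 FPKM, Marcksl1 at 12.6, Clu at 8.77, Cyr61 at 7.25, Ctgf at 6.32, Cd44 at 3.52 and Ankrd1 at 0.475 FPKM. Emp1, Anxa1 and Ankrd1 each stood clear of their neighbours in that order, whereas from Anxa3 to Cd44 the ranges of neighbouring genes overlapped. In the knockout, Marcksl1 took the place above Anxa3, with 52.4 against 28.7 FPKM, and the ranges of these neighbours overlapped.

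Clu encodes clusterin, a secreted chaperone that in the mouse intestine marks a stem cell population that appears after injury. The gene lies on GRCm38 chromosome 14, 65968483 to 65981548, plus strand. Clu measured 104, 101 and 107 CPM in knockout replicates 1, 2 and 3, and 47.9, 48.8 and 55.8 CPM in control replicates 1, 2 and 3. The groups were well apart, and the highest knockout library exceeded the lowest by a factor of only 1.06. Clu rose by a log2 fold change of 1.03 ± 0.12 (SE; edgeR, Benjamini-Hochberg adjusted p = 0.0218). Without knockout replicate 3 the log2 fold change was 1.01, with edgeR adjusted p = 0.139. Without any 1 control library it was 0.98 to 1.1, with edgeR adjusted p = 0.0817 to 0.135, so the size held and the call did not. Over 13 alternative settings of the fit, the call was kept in 8 and lost in 5. It was kept without knockout replicate 1 (edgeR adjusted p = 0.0229) and without knockout replicate 2 (edgeR adjusted p = 0.0093). DESeq2 kept it as well (adjusted p = 4.28e-12).

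Marcksl1 encodes a substrate of protein kinase C that binds actin at the plasma membrane. It lies on chromosome 4, 129513581 to 129515985, plus strand. Marcksl1 measured 119, 44.2 and 77.0 CPM in knockout replicates 1, 2 and 3, and 16.0, 24.9 and 21.4 CPM in control replicates 1, 2 and 3. Every knockout library was above every control library, and knockout replicate 1 was 2.69 times replicate 2. The knockout lay above in this way in 2 of the 8 tested genes (Clu and Marcksl1), against 11.2% of all genes tested. Counting either direction, groups were apart in the same 2 and in 21.6% of all genes tested. The log2 fold change of 1.94 ± 0.37 (SE) was not past the threshold in edgeR (adjusted p = 0.0623). It was past it without knockout replicate 2 (log2 fold change 2.23, edgeR adjusted p = 0.00617), by DESeq2 (adjusted p = 8.88e-05) and in edgeR without a filter on low counts (adjusted p = 0.0484), and not without knockout replicate 3 (1.97, edgeR adjusted p = 0.233).

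Its only relative in the family, Marcks, had a log2 fold change of 0.76 ± 0.16 (SE) and edgeR adjusted p = 0.0748. Marcks measured 131, 122 and 122 CPM in knockout replicates 1, 2 and 3, and 74.6, 61.1 and 86.0 CPM in control replicates 1, 2 and 3. Its groups did not overlap either. Marcks was past the threshold by DESeq2 (adjusted p = 0.00161) and without knockout replicate 2 (edgeR adjusted p = 0.0396).

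**Figure D2:**
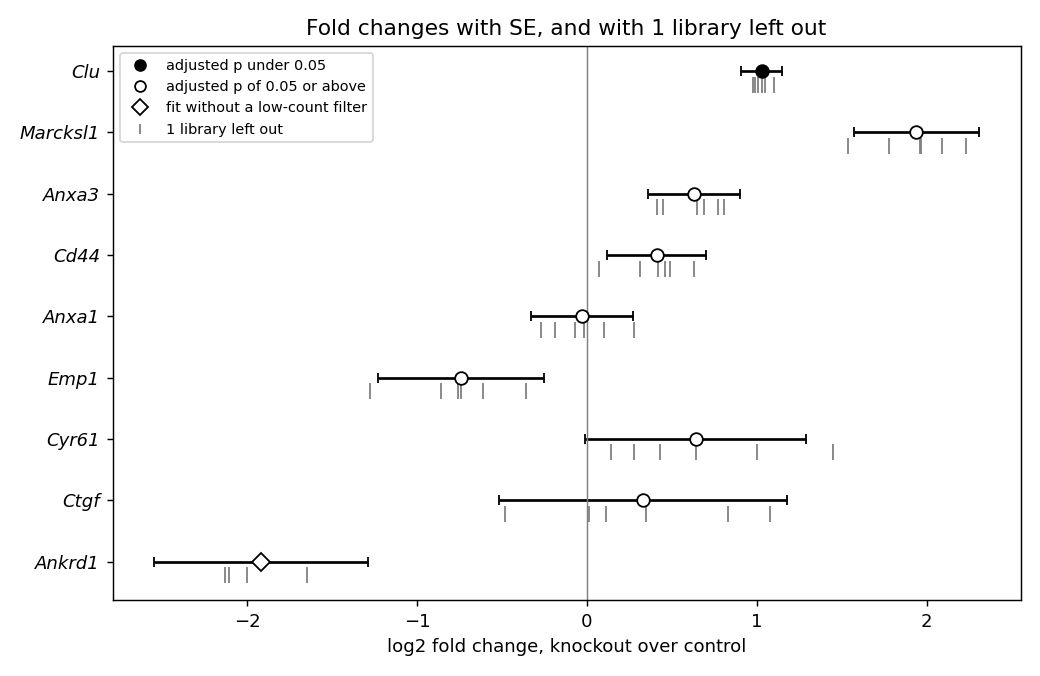
Log2 fold change of knockout over control for each of the 9 genes (horizontal axis), with its SE as a bar and, as grey ticks, the value with 1 library left out. Clu is the single filled point, at 1.03; Ctgf has ticks on both sides of 0, from -0.48 to 1.08, and Ankrd1 is from the fit without a low-count filter.

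The annexins of the set, which bind phospholipid in the presence of calcium, were not past the threshold. Anxa3 (chromosome 5, 96793339 to 96845966, plus strand) measured 173, 111 and 136 CPM in knockout replicates 1, 2 and 3, and 97.9, 111 and 61.5 CPM in control replicates 1, 2 and 3. Knockout replicate 2 and control replicate 2 met at the same level, and the other knockout libraries lay above the other controls. The log2 fold change was 0.63 ± 0.27 (SE; edgeR adjusted p = 0.315). Anxa1 (chromosome 19, 20373428 to 20390944, minus strand), which acts outside the cell on formyl peptide receptors, measured 264, 174 and 216 CPM in knockout replicates 1, 2 and 3, and 214, 310 and 145 CPM in control replicates 1, 2 and 3. The knockout values lay inside the range of the controls. Its log2 fold change was -0.03 ± 0.30 (SE; edgeR adjusted p = 0.976), and the sign turned with the setting used.

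Emp1 encodes a tetraspan membrane protein of epithelial cells. It lies on chromosome 6, 135362545 to 135383173, plus strand. Emp1 measured 413, 1761 and 1093 CPM in knockout replicates 1, 2 and 3, and 1786, 2164 and 1515 CPM in control replicates 1, 2 and 3. Knockout replicate 1 was lowest by far, while replicate 2, at 4.26 times its level, was inside the range of the controls. The log2 fold change was -0.74 ± 0.49 (SE; edgeR adjusted p = 0.526). It was -0.36 without knockout replicate 1 and -1.28 without knockout replicate 2.

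Cd44, the receptor for the matrix polysaccharide hyaluronan and a gene of the crypt base, lies on chromosome 2, 102811141 to 102901665, minus strand. It measured 85.1, 39.1 and 55.9 CPM in knockout replicates 1, 2 and 3, and 39.2, 46.0 and 50.4 CPM in control replicates 1, 2 and 3. Knockout replicates 1 and 3 were above all controls and replicate 2 was just below them. The log2 fold change was 0.41 ± 0.29 (SE; edgeR adjusted p = 0.548), and 0.07 without knockout replicate 1.

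Ctgf and Cyr61 encode secreted CCN proteins, which bind integrins and matrix, and are direct TEAD targets. Ctgf (chromosome 10, 24595442 to 24598683, plus strand) measured 72.1, 5.98 and 38.0 CPM in knockout replicates 1, 2 and 3, and 21.0, 55.6 and 15.6 CPM in control replicates 1, 2 and 3. The highest and the lowest of all 6 values were both knockout libraries, 12.1-fold apart. Cyr61 (chromosome 3, 145646976 to 145649981, minus strand) measured 36.9, 9.78 and 23.3 CPM in knockout replicates 1, 2 and 3, and 6.61, 27.9 and 10.4 CPM in control replicates 1, 2 and 3. Both genes were highest in knockout replicate 1 within the knockout and in control replicate 2 within the control.

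The log2 fold changes were 0.33 ± 0.85 for Ctgf and 0.64 ± 0.65 for Cyr61 (SE; edgeR, Benjamini-Hochberg adjusted p = 0.889 and 0.697). Both standard errors are about as large as the difference or larger. For Ctgf the value was -0.48 without knockout replicate 1, 0.83 without knockout replicate 2 and 1.08 without control replicate 2. For Cyr61 it ran from 0.14 without knockout replicate 1 to 1.45 without control replicate 2. A noncoding transcript on the opposite strand of Ctgf, Gm15270, had 40 reads over the knockout and 15 over the control libraries, against 1792 and 1559 for Ctgf; the sources used here do not say whether counting used strand.

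Ankrd1, an ankyrin-repeat protein of nucleus and sarcomere that is induced by YAP and by stretch in muscle, lies on chromosome 19, 36111965 to 36119844, minus strand. It had 2, 4 and 4 reads in knockout replicates 1, 2 and 3, and 17, 16 and 10 reads in control replicates 1, 2 and 3. Every knockout library was below every control library. Scaled, that was 0.131, 0.292 and 0.249 CPM in the knockout and 1.05, 0.925 and 0.608 CPM in the control, where 3 reads are worth 0.174 to 0.219 CPM. The gene did not pass the filter on low counts. In edgeR without that filter it had a log2 fold change of -1.92 ± 0.63 (SE; adjusted p = 0.216). At this depth the value has little precision.

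The spread of these genes among the knockout libraries can be set beside the cell type markers of the same libraries. Over 10 fibroblast markers, such as Col3a1 and Dcn, the summed level was 3603, 867 and 2134 CPM in knockout replicates 1, 2 and 3, against 936 to 1210 CPM in the control. Over 8 endothelial markers it was 259, 66.0 and 156 CPM, against 74.0 to 93.6 CPM in the control. Over 11 epithelial markers it ran the other way, at 6480, 14500 and 10380 CPM in knockout replicates 1, 2 and 3, against 12280 to 14210 CPM in the control. Ctgf, Cyr61, Cd44, Marcksl1, Anxa1 and Anxa3 were highest in knockout replicate 1, with the stromal markers, and Emp1 was highest in replicate 2, with the epithelial ones. Summed markers of neutrophils, macrophages, smooth muscle, mesothelium, and neurons and glia were also highest in knockout replicate 1. Those of surface colonocytes, crypt stem cells, squamous epithelium, T cells and B cells were highest in knockout replicate 2. Within the control, the fibroblast sum was 936 CPM in replicate 2, where Ctgf and Cyr61 were highest, and 1210 and 1044 CPM in replicates 1 and 3. The part of cell composition in these values was not tested.

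**Figure D3:**
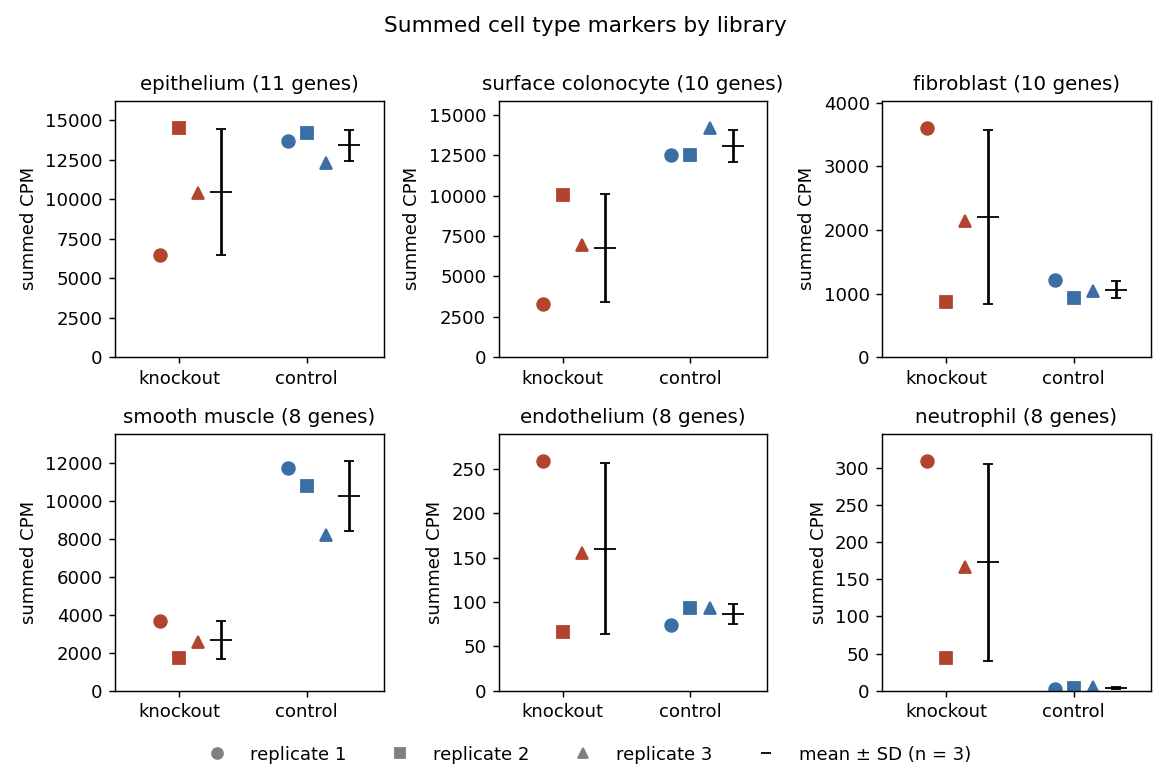
Summed CPM of 6 marker lists (vertical axes, starting at 0) in the 3 knockout and the 3 control libraries, with the mean and SD of each group. Fibroblast, endothelial and neutrophil sums are highest in knockout replicate 1 and epithelial sums in knockout replicate 2; smooth muscle lies below the controls in every knockout library.

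Other markers differed between the groups as well. Over 8 neutrophil markers, led by S100a9 and S100a8, the sum was 43.5 to 309 CPM in the knockout and 2.78 to 5.47 CPM in the control. Over 8 macrophage markers it was 149 to 254 CPM in the knockout and 75.9 to 115 CPM in the control. Smooth muscle summed to 1705 to 3686 CPM in the knockout and 8195 to 11770 CPM in the control over 8 markers, and surface colonocytes to 3321 to 10010 CPM in the knockout and 12490 to 14180 CPM in the control over 10. Ranges overlapped for crypt stem cells (10 markers, 482 to 1144 CPM in the knockout and 810 to 938 CPM in the control). Of these markers, Prom1 was the most read, at 142, 1000 and 439 CPM in knockout replicates 1, 2 and 3. In control replicates 1, 2 and 3 it measured 732.5, 554 and 622 CPM. It made up most of the sum except in knockout replicate 1, where Smoc2 had 197 CPM. The sum therefore says little about the less read markers. Of 9 crypt stem cell markers tested, 8 had negative log2 fold changes and Smoc2 had 2.05. In edgeR 0 passed, and DESeq2 called 2, against 9.19% of all genes. Lgr5 (-2.54, at most 1.91 CPM), Cdca7 (-0.99) and Znrf3 (-0.37) were lower in each knockout library than in each control library. This held for 10.4% of all genes tested. Ranges also overlapped for squamous epithelium (10 markers, 167 to 352 CPM in the knockout and 313 to 351 CPM in the control). Of the squamous markers, Perp made up nearly the whole sum, and Krt5, Krt13, Krt4, Krt6a, Trp63 and Dsg3 stood at 0 to 0.459 CPM in each library. Krt14, Krt15 and Dsc3 reached at most 1.38, 1.45 and 1.61 CPM. They also overlapped for mesothelium (5 markers, 0.876 to 7.87 CPM in the knockout and 4.45 to 16.1 CPM in the control) and for neurons and glia (6 markers, 105 to 361 CPM in the knockout and 75.7 to 116 CPM in the control). The same held for T cells (6 markers, 17.5 to 36.0 CPM in the knockout and 11.7 to 28.9 CPM in the control) and B cells (5 markers, 16.2 to 64.6 CPM in the knockout and 13.4 to 27.1 CPM in the control).

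Set against the epithelial sum of the same library, Clu kept its separation. Per 1000 CPM of epithelial markers Clu had 16.0, 6.94 and 10.3 CPM in knockout replicates 1, 2 and 3, and 3.49, 3.44 and 4.54 CPM in control replicates 1, 2 and 3. Emp1 had 63.7, 121 and 105 CPM on that scale in the knockout, and 130, 152 and 123 CPM in the control, so that its groups no longer overlapped and the knockout was lower. Against the fibroblast sum, Clu had 28.8, 116 and 50.1 CPM per 1000 in the knockout and 39.6, 52.2 and 53.5 CPM in the control, and the groups overlapped. Marcksl1 was higher in each knockout library than in each control library against the epithelial, fibroblast, smooth muscle and endothelial sums. The smooth muscle sum was itself lower in every knockout library, and Clu, Anxa1, Anxa3, Cyr61 and Cd44 were higher against it too. That ratio therefore does not set Marcksl1 apart. Against the fibroblast sum, Marcksl1 had 32.95, 50.99 and 36.08 CPM per 1000 in the knockout and 13.2, 26.6 and 20.5 CPM in the control. These ratios were chosen after the data were seen and carry no test.

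No other target of YAP passed the threshold. Of 21 further targets, all tested, 0 passed in edgeR's quasi-likelihood test (4 had an unadjusted p under 0.05, of which 2 were higher and 2 lower; 1 by DESeq2). Over all genes, 16% had an unadjusted p under 0.05. Their log2 fold changes were positive in 13 and negative in 8, with a median of 0.2 that was -0.15 without knockout replicate 1 and 0.41 without knockout replicate 2. Igfbp3, a carrier of insulin-like growth factors, had a log2 fold change of 2.35 ± 0.52 (SE) and edgeR adjusted p = 0.0824. DESeq2 called it. Igfbp3 measured 126, 27.7 and 82.0 CPM in knockout replicates 1, 2 and 3, and 13.9, 14.0 and 18.2 CPM in control replicates 1, 2 and 3. Gadd45b, a stress-response gene, had 0.83, Asap1, a regulator of Arf GTPases, -0.52, and Nuak2, a kinase that YAP induces, -0.88. Without knockout replicate 2, 4 rose (Igfbp3, Axl, Tgfb2 and Ccdc80) and Nuak2 fell in edgeR. In that fit 11.2% of all 16280 genes tested passed, 8.07% as higher and 3.14% as lower. The 4 that rose were also higher in knockout replicate 1 than in replicate 2.

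**Figure D4:**
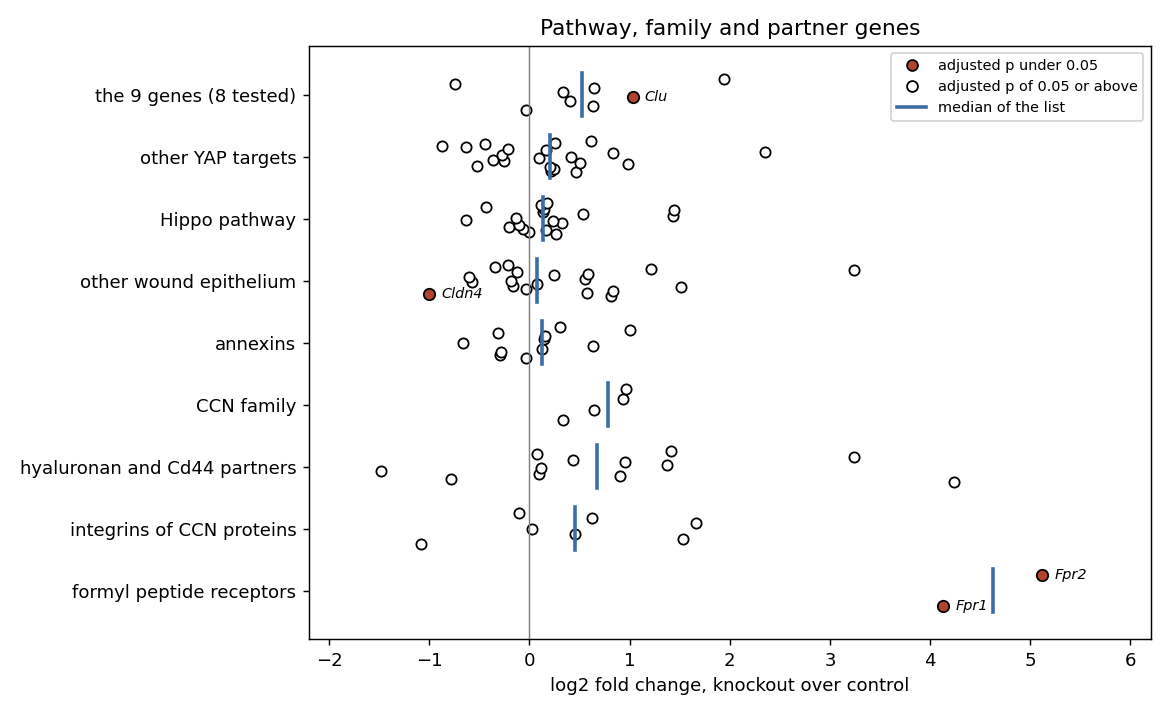
Log2 fold change of knockout over control (horizontal axis) for each tested gene of 9 lists (rows), with the median of each list as a blue bar. Filled points passed the threshold: Clu, Cldn4, Fpr1 and Fpr2; no other YAP target or Hippo gene did.

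Nor did any gene of the Hippo pathway itself. Of 18 components, all tested, 0 passed in edgeR (2 had an unadjusted p under 0.05, 1 higher and 1 lower, against 16% of all genes; 2 by DESeq2, against 9.19% of all genes). The median log2 fold change was 0.14, and -0.01 without knockout replicate 1. Yap1 measured 155, 87.2 and 113 CPM in knockout replicates 1, 2 and 3, and 97.2, 112 and 105 CPM in control replicates 1, 2 and 3. Its log2 fold change was 0.18 ± 0.22 (SE; edgeR adjusted p = 0.756). Stk4, a kinase upstream of YAP, had -0.63 ± 0.15, and Tead4, one of the DNA-binding partners, 1.45 ± 0.42 (SE; edgeR adjusted p = 0.0937 and 0.158). Both were called by DESeq2. Sav1, the scaffold of the kinases, had 0.33. Tead1 measured 6.62, 43.6 and 68.3 CPM in knockout replicates 1, 2 and 3, and 13.5, 16.3 and 14.0 CPM in control replicates 1, 2 and 3. Knockout replicate 3 lay above both other knockout libraries here, and replicate 1 below the controls. Its log2 fold change was 1.43 ± 0.71 (SE; edgeR adjusted p = 0.39), and 1.93 without knockout replicate 1 (edgeR adjusted p = 0.0186).

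Of 20 further genes of wound-associated epithelium, 19 were tested; 0 rose and 1 fell (edgeR), while 3 were higher and 2 lower at an unadjusted p under 0.05 (16% of all genes were past that level in either direction), and DESeq2 called 4 (9.19% of all genes). Log2 fold changes were positive in 10 and negative in 9, with a median of 0.08 that ran from -0.09 without control replicate 3 to 0.5 without control replicate 2. The one that fell was Cldn4, a tight junction claudin. Cldn4 measured 38.0, 31.5 and 30.6 CPM in knockout replicates 1, 2 and 3, and 59.9, 68.6 and 71.8 CPM in control replicates 1, 2 and 3. Its groups were far apart, with a log2 fold change of -1.002 ± 0.151 (SE; edgeR, Benjamini-Hochberg adjusted p = 0.0335). Spp1, an extracellular ligand of Cd44, had 3.24, Il33, an alarm cytokine, 1.51, Basp1, a protein of the inner plasma membrane, 0.81 and Lamb3, a laminin chain, -0.57, and these 4 were not past the threshold in edgeR. DESeq2 called Spp1, Il33 and Lamb3 (adjusted p = 0.00138, 0.00571 and 0.00949). Ly6a, a surface antigen of fetal-like epithelium, measured 696, 671 and 690 CPM in knockout replicates 1, 2 and 3, and 597, 497 and 305 CPM in control replicates 1, 2 and 3. Its groups did not overlap, and its log2 fold change was 0.56 ± 0.26 (SE; edgeR adjusted p = 0.358). Without knockout replicate 3, or without any 1 control library, 0 genes of this list passed, Cldn4 included, and without knockout replicate 2, where 11.2% of all genes passed, there were 4 that rose and 2 that fell.

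Relatives of the 9 genes were examined next. Of 12 annexins, 11 were tested and 0 passed (1 at an unadjusted p under 0.05, against 16% of all genes, and 0 by DESeq2, against 9.19%). Anxa4 and Anxa7 were lower in each knockout library than in each control library, as 10.4% of all genes tested were. Their log2 fold changes were -0.66 and -0.31, and Anxa11 had -0.30. Of 6 CCN genes, the 4 tested had positive log2 fold changes and 0 passed. At an unadjusted p under 0.05 there were 0, and DESeq2 called 0, against the same shares over all genes. Besides Ctgf and Cyr61, Nov had 0.94 and Wisp1 0.96. Nov ran against the others among the knockout libraries, at 18.6, 102 and 57.4 CPM in knockout replicates 1, 2 and 3, and at 29.1, 27.8 and 36.3 CPM in control replicates 1, 2 and 3. Of the relatives of Emp1, Pmp22 had -0.81, Emp2 0.12 and Emp3 0.66, and 0 passed (1 at an unadjusted p under 0.05, 0 by DESeq2). Pmp22 was at 232 to 273 CPM in the knockout and 327 to 662 CPM in the control. Ankrd23, a relative of Ankrd1, had -0.24 with overlapping groups, and Ankrd2 had too few reads to be tested.

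Receptors and ligands of these proteins included larger fold changes. Fpr1 and Fpr2, formyl peptide receptors on which Anxa1 acts and which neutrophils carry, rose with log2 fold changes of 4.13 ± 0.64 and 5.12 ± 0.83 (SE; edgeR, Benjamini-Hochberg adjusted p = 0.0351 and 0.0392). Fpr2 measured 13.5, 5.84 and 10.9 CPM in knockout replicates 1, 2 and 3, and 0.556, 0 and 0.304 CPM in control replicates 1, 2 and 3. Both calls were lost without knockout replicate 3 and without any 1 control library. Neutrophil markers were higher in the same libraries, and their part in this was not tested. The receptors are close relatives of each other, and the sources used here do not say how reads shared between them were counted.

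Of 14 genes that make, cut or bind hyaluronan or link Cd44 to its ligands and to the cytoskeleton, 12 were tested and 0 passed in edgeR (against 5 in DESeq2, where 9.19% of all genes were called, and 7 at p under 0.05 before adjustment, where 16% of all genes were). Cemip, which takes part in hyaluronan breakdown, measured 227, 21.3 and 112 CPM in knockout replicates 1, 2 and 3, and 4.14, 9.31 and 5.65 CPM in control replicates 1, 2 and 3. Its groups did not overlap, and its log2 fold change was 4.24 ± 0.86 (SE; edgeR adjusted p = 0.0713). Hyal1, a hyaluronidase, had -1.48 and Vcan, a proteoglycan that binds hyaluronan, 1.42. Against the same shares over all genes, among 7 integrin genes whose products bind CCN proteins 0 passed (3 at an unadjusted p under 0.05, 2 by DESeq2). Itgb2 and Itgam, which together form a receptor of myeloid cells, had 1.66 and 1.54, Itga6 -1.08 and Itgb3 0.63. Of 4 lipoprotein receptors and related receptors that bind clusterin, 2 were tested and 0 passed (1 at an unadjusted p under 0.05, 1 by DESeq2). Vldlr measured 13.4, 16.2 and 17.8 CPM in knockout replicates 1, 2 and 3, and 57.4, 41.5 and 30.6 CPM in control replicates 1, 2 and 3, with a log2 fold change of -1.45 ± 0.26 (SE; edgeR adjusted p = 0.0519). Lrp8 had -0.38.

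Patterns over the 6 libraries were compared by Pearson's r of log2 CPM among 11540 genes with a mean of at least 5 CPM, as a description in which knockout replicate 3 counts as a library of its own. The nearest gene had r of 0.985 to 0.999 for each of the 8 tested genes. For Clu the nearest were Psca, a surface antigen, and Gbp2b, a guanylate-binding protein, which stood at 0 to 0.122 and 0.752 to 1.58 CPM in the control. For Marcksl1 they were Chodl and Inhbb, an inhibin subunit, and for Anxa3 Pla2g4f and Prps1. Ctgf was nearest to Tmbim1 and Camkk2, Cyr61 to Zfp948 and Nle1, and Cd44 to P2rx7, an ATP-gated channel, and Cadm3. Anxa1 was nearest to Mapre1 and Ncoa6, and Emp1 to Snx14 and Nadk. No gene of the 9 was among the 2 nearest of another. With 11540 genes searched over 6 libraries, this does not show that their patterns were unlike. Ctgf and Cyr61 had different nearest genes, yet both peaked in knockout replicate 1 and, within the control, in replicate 2.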

How the data were processed

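Total RNA from flash-frozen colon was sequenced, per the labels' protocols. Each gene has, per the file headers, a column of read counts and one of FPKM for every library. Counts in the deposited table are whole and unscaled; the ratio of count to the deposited FPKM followed the library totals within 0.001 log2 units for 100% of 9892 well-covered genes. Tools listed without a role in the submitters' processing notes are StringTie 1.3.0, HISAT2 2.0.4 and edgeR; the builds listed are GRCh38 and mm8. Of 34267 gene identifiers in GENCODE M21 (GRCm38), 80.8% had the same start and end in the table, so coordinates are those of the table, on GRCm38. The sources used here do not state strandedness.

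The test was edgeR 4.0.16 in R 4.3.3: TMM scaling, edgeR's filter on low counts, the quasi-likelihood test of knockout over control without a replicate block, two-sided, Benjamini-Hochberg adjustment over 15819 genes, threshold 0.05. SE was derived from the test statistic. CPM are counts scaled after TMM. Log2 CPM used a prior count of 2. The 9 genes and all lists were chosen with earlier results of these data known. Named genes are the 9, list members past the threshold, and the 4 smallest p of each pathway, family or partner list. Also named are all tested members of families of 6 or fewer, abundant markers, and the 2 genes of nearest pattern. Yap1, Ly6a, the squamous markers and the crypt stem cell markers were named after their values were seen. Itgam stands on 2 rows of the table, and the row with more reads was used. The alternatives tried were each library left out, a block for the replicate number, limma 3.58.1 on log2(FPKM + 1) and on log2(FPKM + 0.1), a minimum mean of 1 FPKM, no filter, RLE factors and DESeq2 1.42.0; applying them to every list was decided after the data were seen. Promoter sequences are RefSeq's, on GRCm38.p6, matched by symbol for 6 of the 9 genes.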

Additional observations from a re-analysis of the deposited data

How the results depend on the processing

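The number of all genes past the threshold was 278, but 1453 by DESeq2, 9 with the replicate block and 15 to 1825 with 1 library left out (31, 20 and 29 without control replicates 1, 2 and 3, and 15 and 1825 without knockout replicates 3 and 2). Of the 9 genes, 1 was past it, but 2 by DESeq2, 2 without a filter on low counts, 0 with the replicate block and 0 to 2 with 1 library left out. Of the 21 other YAP targets it was 0, but 1 by DESeq2 and 0 to 5 with 1 library left out. No pairing of replicates by number is given in the labels. Deviations from the group means correlated across genes at 0.042, -0.166 and -0.016 for replicates 1, 2 and 3. Between different numbers they correlated at -0.193 to 0.194. With 3 libraries per group, and knockout replicate 3 close to a weighted sum of the others, this cannot show whether a pairing exists. The block result is therefore given without a reading. Clu, Marcksl1, Anxa3, Cd44, Cyr61 and Emp1 kept their direction in each of 13 alternatives, and Ankrd1 in the 6 that could test it. The direction of Anxa1 turned: its log2 fold change was 0.09 in limma on log2(FPKM + 1) and on log2(FPKM + 0.1), 0.02 with the replicate block and -0.27 to 0.28 with 1 library left out. That of Ctgf ran from -0.48 to 1.08 with 1 library left out. The cause was not tested. Ankrd1 had 2 to 17 reads in each library, and the other 8 had at least 82.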
